A study of Mus musculus with 12 samples.

Results

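The vascular endothelial growth factor (VEGF) system was described here in brain endothelial cells through 10 genes. They are the 5 ligand genes Vegfa, Vegfb, Vegfc, Vegfd and Pgf, the 3 receptor genes Kdr, Flt1 and Flt4, and the 2 neuropilin genes Nrp1 and Nrp2. The genes were taken by symbol, with earlier results of these data known, from 49315 genes with counts, and each symbol matched 1 Ensembl gene of GENCODE vM21. Of the 10 genes, 9 had enough reads to be tested, and Vegfd, with 1 to 12 reads per library, did not. Each library came from the CD31+ endothelial cells of 1 mouse embryo, sorted out of the forebrain at E15.5. The sort also required that cells lack the pericyte protein CD140b, the leukocyte protein CD45 and the dead-cell dye 7-AAD. There were 4 wild-type embryos, 4 Gpr124-/- embryos and 4 Gpr124ΔC/ΔC embryos. Gpr124 encodes an adhesion G protein-coupled receptor of brain endothelium, and the design sets embryos that lack the receptor, and embryos with a receptor cut short before its intracellular domain, against wild type. Gpr124-/- embryos were homozygous for a lacZ knockout allele present in every cell, so the sorted cells came from embryos in which other tissues were mutant too. Gpr124ΔC/ΔC embryos were homozygous for an allele with a V5 tag and stop codon ahead of the C-terminal intracellular domain, also in every cell. The study describes less GPR124 protein from this allele, so loss of the domain and a lower amount of receptor cannot be told apart in these embryos.

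VEGF ligands are secreted dimers. VEGF-A, the principal driver of vessel growth in the embryonic brain, binds KDR (VEGFR2), the main signaling receptor of blood endothelium, and FLT1 (VEGFR1), which holds ligand tightly but signals weakly and is also made as a soluble decoy. Among the VEGF receptors, PGF and VEGF-B bind FLT1 alone, whereas VEGF-C and VEGF-D bind FLT4 (VEGFR3) and, once processed, KDR. NRP1 and NRP2 are co-receptors without a kinase domain that also bind class 3 semaphorins. In the developing brain, neural progenitors and neurons are the usual source of VEGF-A, and endothelial cells carry the receptors.

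Reads counted on genes ran from 13877572 to 22551163 per library. The targeted gene, listed as Adgra2, measured 28.3 to 51.1 TPM (transcript abundance per gene length, with an equal sum in every library) in wild type, 34.1 to 63.4 in Gpr124ΔC/ΔC and 4.03 to 6.29 in Gpr124-/-. The 10 endothelial marker genes were detected in all libraries, and their summed TPM was 12429 to 16063 in wild type, 7937 to 12874 in Gpr124ΔC/ΔC and 7162 to 8571 in Gpr124-/-, with Cldn5 falling from a mean of 9177 to 4994 and 2166 TPM. In Gpr124-/- against wild type, 3 of the 10 passed the test as lower (Cldn5, Tek and Erg) and 4 as higher (Emcn, Cdh5, Robo4 and Pecam1), with a median log2 fold change of -0.02. Of all tested genes, 9.32% passed as lower and 10.5% as higher in this comparison. Platelet and erythroid markers were higher in Gpr124-/-. The 8 platelet genes summed to 298 to 599 TPM in wild type, 416 to 588 in Gpr124ΔC/ΔC and 601 to 1915 in Gpr124-/-, and the 8 erythroid genes to 7012 to 11772, 5448 to 9898 and 17820 to 54233 TPM, respectively. All 8 platelet genes and 5 of 8 erythroid genes passed the test as higher in Gpr124-/- than in wild type, against 10.5% of all tested genes. Summed TPM of 10 macrophage genes was 12.6 to 21.6 in wild type, 18.4 to 40.0 in Gpr124ΔC/ΔC and 40.2 to 69.0 in Gpr124-/-, most of it Fcer1g, and the defining leukocyte gene Ptprc was at 0.0822 TPM at most. Only 3 of the 10 macrophage genes had enough reads to be tested, and in Gpr124-/- against wild type Fcer1g passed as higher, with a log2 fold change of 1.94, against -1.42 for Mrc1 (adjusted p = 0.0612) and 0.04 for Csf1r (adjusted p = 0.973). Neuronal genes summed to 60.1 to 142, 83.5 to 155 and 114 to 143 TPM. Neural progenitor genes summed to 590 to 641, 733 to 859 and 913 to 1085 TPM, most of it Vim (means of 487, 665 and 813 TPM), which endothelium also expresses. Of the 9 tested progenitor genes, Vim alone passed as higher and Slc1a3 alone as lower against wild type in each mutant, with a median log2 fold change of 0.17 in Gpr124-/- and -0.22 in Gpr124ΔC/ΔC. In Gpr124ΔC/ΔC, 1.85% of all tested genes passed as higher and 2.24% as lower. Pericyte genes (22.2 to 44.4, 13.3 to 33.2 and 30.2 to 42.9 TPM), fibroblast genes (13.4 to 69.6, 9.36 to 18.5 and 13.2 to 15.4 TPM) and lymphatic genes (2.54 to 4.97, 2.39 to 7.89 and 3.17 to 5.48 TPM) overlapped between genotypes. In bulk samples, fewer cells of a type and less RNA per cell cannot be told apart.

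The genes lie on 8 chromosomes of GRCm38 in the vM21 annotation. Vegfa (ENSMUSG00000023951) spans 46016993 to 46032369 on the minus strand of chromosome 17 and has 13 annotated transcripts, 8 of them protein-coding. Vegfb (ENSMUSG00000024962) lies on chromosome 19, minus strand, from 6982473 to 6987651. Vegfc (ENSMUSG00000031520) spans 54077606 to 54187096 on the plus strand of chromosome 8, which also carries Nrp1 (ENSMUSG00000025810, plus strand, 128358604 to 128503363). Pgf (ENSMUSG00000004791) lies on chromosome 12, minus strand, from 85166635 to 85177790, and Vegfd (ENSMUSG00000031380) on chromosome X, plus strand, from 164373378 to 164402650. Kdr (ENSMUSG00000062960, 75932827 to 75978458) and Flt1 (ENSMUSG00000029648, 147561604 to 147726011) are both on the minus strand of chromosome 5. Flt4 (ENSMUSG00000020357) runs from 49609263 to 49652739 on the plus strand of chromosome 11, and Nrp2 (ENSMUSG00000025969) from 62703285 to 62818695 on the plus strand of chromosome 1. Each value is a sum over all exons of a gene, so splice forms, such as soluble and membrane-bound Flt1, were not separated. The microRNA gene Mir1903 shares exonic bases with Nrp1 on the same strand, and the antisense gene Gm29083 overlaps Nrp2 without sharing exonic bases. Reads in the bases shared with Mir1903 cannot be told apart by strand.

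The sequences ahead of 3 ligand genes are shown because Vegfa and Vegfc rose in Gpr124-/- and Vegfb, also a ligand gene, did not pass the test. They are the 250 bases before the first RefSeq transcript start (GRCm38.p6), 5′ to 3′ on the strand of the gene. Capitals mark GC boxes, GGGCGG on either strand, the sequence bound by SP1-type factors. The windows are chr17:46032378-46032627 (minus strand) for Vegfa, chr8:54077282-54077531 (plus strand) for Vegfc and chr19:6987652-6987901 (minus strand) for Vegfb.
Vegfa: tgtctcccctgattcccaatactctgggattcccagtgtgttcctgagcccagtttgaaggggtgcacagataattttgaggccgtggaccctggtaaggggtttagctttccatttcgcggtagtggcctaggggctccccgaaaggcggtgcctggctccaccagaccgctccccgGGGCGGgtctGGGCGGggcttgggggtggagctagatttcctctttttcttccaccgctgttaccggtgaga
Vegfc: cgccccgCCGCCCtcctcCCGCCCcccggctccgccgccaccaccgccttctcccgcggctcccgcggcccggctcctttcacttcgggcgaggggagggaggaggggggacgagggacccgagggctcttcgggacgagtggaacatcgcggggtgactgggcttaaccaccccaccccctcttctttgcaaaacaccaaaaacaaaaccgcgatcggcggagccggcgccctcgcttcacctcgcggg
Vegfb: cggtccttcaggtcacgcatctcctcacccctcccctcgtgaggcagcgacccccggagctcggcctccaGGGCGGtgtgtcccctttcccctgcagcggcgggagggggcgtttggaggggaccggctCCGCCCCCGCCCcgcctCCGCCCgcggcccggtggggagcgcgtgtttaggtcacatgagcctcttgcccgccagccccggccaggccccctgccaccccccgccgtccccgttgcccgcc
All 3 windows hold GC boxes, 2 in Vegfa (beginning 72 and 62 bases before the start), 2 in Vegfc and 4 in Vegfb. A GC box was present before the first start of 9 of the 10 genes, the exception being Vegfd, against 32.7% of all 32817 RefSeq windows of this length. Of the 10 first windows, 5 held no base of a vM21 exon, whereas those of Pgf and Flt4 lay wholly within exons. GC content of the window was 59.2% for Vegfa, 71.6% for Vegfc, 76.4% for Vegfb and 42.4% for Vegfd. The core of the hypoxia-inducible factor site, ACGTG or GCGTG on either strand, occurred in 38.6% of all windows and before the first start of 6 of the 10 members. These 6 were 2 of the 5 genes that passed the test in Gpr124-/- against wild type (Pgf and Nrp1) and all 4 that were tested and did not (Vegfb, Kdr, Flt1 and Nrp2). Vegfa, without a match before its first start, held 2 before its second RefSeq start (beginning 218 and 211 bases ahead of it). That second window lies within the Vegfa gene, and 218 of its 250 bases are in vM21 exons. The letters CTTTGAT or CTTTGAA of TCF/LEF factors were found before the first start only in Nrp2 among the 10 genes, against 7.48% of all windows. No match of one motif overlapped a match of another in these windows. A match is a string of letters and not a measured binding site.

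Receptor mRNA far exceeded ligand mRNA in every genotype. Values of single libraries are listed below in the order JE1, JE6, KE8 and LE6 for wild type, JE3, JE4, LE2 and LE5 for Gpr124ΔC/ΔC, and KE4, ME1, ME4 and ME5 for Gpr124-/-, by embryo label. In wild type, mean TPM fell in the order Kdr (769 ± 91.4, SD, n = 4), Flt1 (297 ± 38.0), Nrp1 (162 ± 22.5), Flt4 (94.0 ± 6.21), Vegfc (41.5 ± 4.97), Nrp2 (35.1 ± 4.63), Vegfb (9.96 ± 5.15), Pgf (7.22 ± 2.27), Vegfa (2.33 ± 0.828) and Vegfd (0.267 ± 0.0769). The libraries of neighbors in this order overlapped for Vegfc with Nrp2 and for Vegfb with Pgf, and for no other pair of neighbors. Gpr124ΔC/ΔC kept Kdr, Flt1, Nrp1 and Flt4 at the top, although Flt1 and Nrp1 overlapped there. In Gpr124-/- the order of the first 6 genes was that of wild type, but Pgf (13.6 ± 3.57), Vegfa (13.0 ± 4.95) and Vegfb (12.6 ± 4.36) followed with overlapping libraries.

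**Figure D1:**
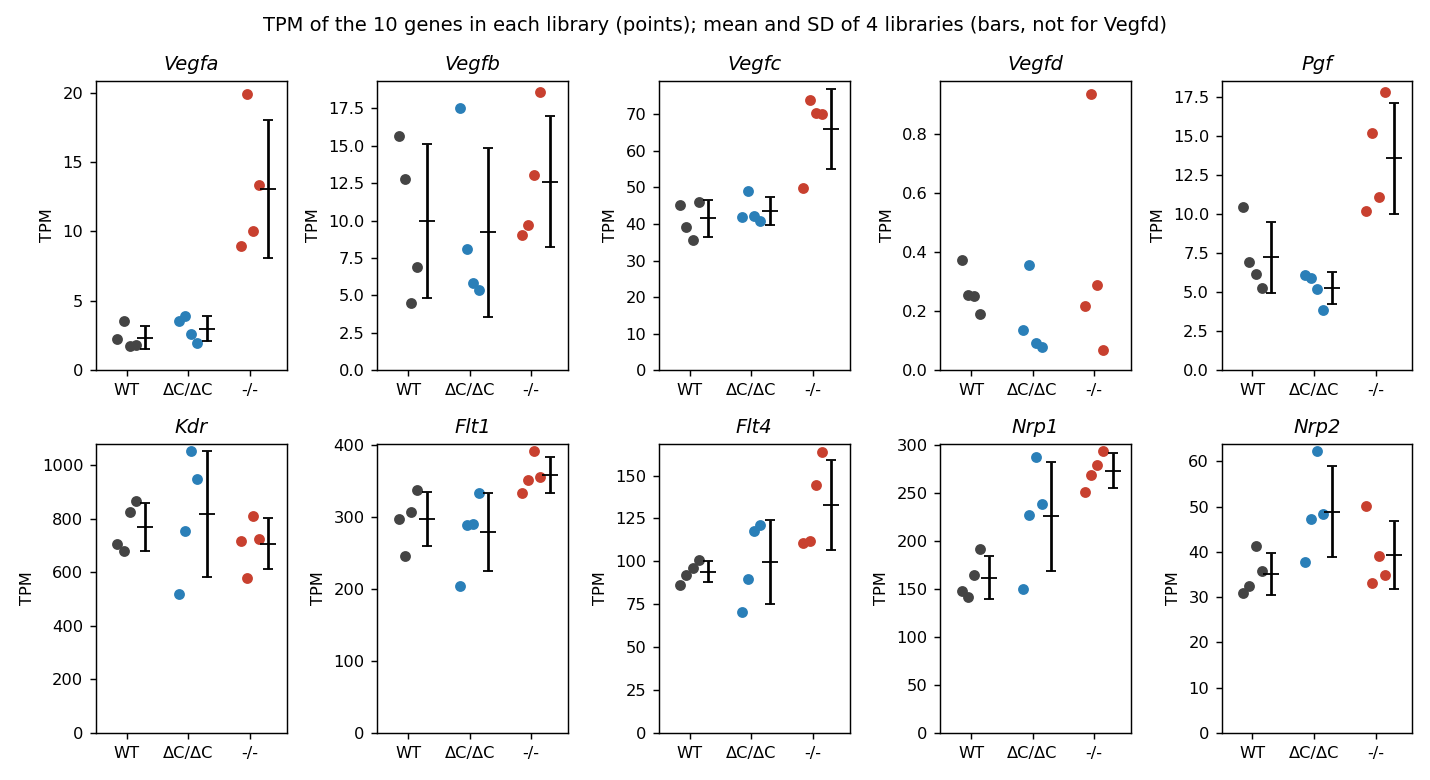
TPM of each of the 10 genes (vertical axes from 0, one panel a gene) in the 4 libraries of wild type (WT), Gpr124ΔC/ΔC (ΔC/ΔC) and Gpr124-/- (-/-), with mean and SD beside the points except for Vegfd. The 4 Gpr124-/- libraries sit above all wild-type libraries for Vegfa, Vegfc, Flt4 and Nrp1, and the genotypes overlap for Kdr and Vegfb.

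Loss of Gpr124 was accompanied by higher mRNA of 3 ligands, 1 receptor and 1 neuropilin. Against wild type, Vegfa, Vegfc, Pgf, Flt4 and Nrp1 rose in Gpr124-/-, which is 5 of the 9 tested genes at an adjusted p under 0.05, while 19.8% of all 16637 tested genes passed in either direction, 10.5% as higher and 9.32% as lower. Vegfa alone also exceeded a log2 fold change of 1, as did 5.67% of all genes. Median log2 fold change was 0.46 over the 9 genes and -0.01 over all genes. Adjusted p-values, unless another tool is named, come from edgeR (quasi-likelihood test, Benjamini-Hochberg over all tested genes). TPM did not overlap between Gpr124-/- and wild type for 4 of the 9 genes (Vegfa, Vegfc, Flt4 and Nrp1, each higher in Gpr124-/-), compared with 20.3% of all genes in either direction. With DESeq2, 5 of the 9 genes passed, and with limma on log2(TPM + 1), 4 did. The edgeR count was 3 with no filter on low counts, 3 in the fit of the 2 compared genotypes only, and 3 to 5 when 1 library was left out.

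Vegfa, the main angiogenic ligand, showed the largest change of the 9 genes. Its TPM was 2.22, 3.53, 1.72 and 1.84 in the wild-type libraries, 3.53, 3.88, 2.61 and 1.96 in Gpr124ΔC/ΔC, and 8.92, 19.9, 9.99 and 13.3 in Gpr124-/-. All Gpr124-/- libraries were above all others, and wild type and Gpr124ΔC/ΔC overlapped. The log2 fold change in Gpr124-/- was 2.44 (SE 0.36, adjusted p = 0.000376), a 5.41-fold rise with a 95% confidence interval of 3.14 to 9.31. Behind these values were 49 to 99 reads per wild-type library and 221 to 455 reads per Gpr124-/- library. Vegfa passed the test in all 22 alternative analyses, with log2 fold changes from 2.04 to 2.76. Platelet genes summed to 601 TPM in KE4, 1915 in ME1, 1355 in ME4 and 1870 in ME5 of Gpr124-/-, against at most 599 TPM in wild type (LE6). The part of platelet, erythroid and progenitor RNA in the differences between genotypes was not tested.

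Vegfc, the ligand of FLT4 and the most abundant ligand mRNA of these cells, measured 45.1, 39.1, 35.7 and 46.1 TPM in wild type, 42.0, 49.1, 42.2 and 40.8 in Gpr124ΔC/ΔC, and 49.7, 73.9, 70.3 and 70.2 in Gpr124-/-. The Gpr124-/- libraries were all higher, with KE4 closest to the other genotypes. Its log2 fold change from wild type to Gpr124-/- was 0.63 (SE 0.15, adjusted p = 0.00987), or 1.55-fold (95% confidence interval 1.23 to 1.95). Pgf, which encodes a FLT1-specific ligand, measured 10.5, 6.95, 6.19 and 5.29 TPM in wild type, 6.06, 5.93, 5.23 and 3.86 in Gpr124ΔC/ΔC, and 10.2, 15.2, 11.1 and 17.8 in Gpr124-/-. Wild-type embryo JE1 reached into the range of Gpr124-/-, and the other wild-type libraries were lower. Its log2 fold change was 0.87 (SE 0.28, adjusted p = 0.0466), close to the threshold. Pgf no longer passed when wild-type JE6, KE8 or LE6, Gpr124ΔC/ΔC JE4 or LE2, or Gpr124-/- ME1 or ME5 was left out (adjusted p from 0.0594 to 0.142). The call was also lost with no filter on low counts (adjusted p = 0.0615) and in the fit of the 2 compared genotypes only (0.0644). It held in 12 of 22 alternative analyses.

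Vegfb, whose product binds FLT1 and is linked to lipid uptake, varied widely within genotypes. Its TPM was 15.7, 12.8, 4.50 and 6.91 in wild type, 17.5, 8.11, 5.85 and 5.35 in Gpr124ΔC/ΔC, and 9.05, 9.69, 13.1 and 18.6 in Gpr124-/-. The genotypes overlapped throughout, and the log2 fold change of 0.28 in Gpr124-/- had a 95% confidence interval from -0.77 to 1.33 (adjusted p = 0.750). Vegfd, the other FLT4 ligand, had 3 to 7 reads in wild-type libraries, 1 to 4 in Gpr124ΔC/ΔC and 1 to 12 in Gpr124-/-, or at most 0.934 TPM. At this depth no difference in Vegfd was detectable, with an adjusted p of 0.804 in Gpr124-/- against wild type when genes with low counts were also tested by edgeR.

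Ligand TPM summed over the 5 genes was 61.3 ± 10.5 (SD, n = 4) in wild type, 61.2 ± 8.45 in Gpr124ΔC/ΔC and 106 ± 19.7 in Gpr124-/-. Vegfc made up 68.4% ± 7.78 of this sum in wild type, 71.8% ± 7.78 in Gpr124ΔC/ΔC and 62.8% ± 3.60 in Gpr124-/-. Vegfa supplied 3.81% ± 1.24, 4.82% ± 0.835 and 12.2% ± 3.08, respectively, with the Gpr124-/- libraries (9.54% or more) above those of wild type (5.64% or less). The share of Pgf was 11.7% ± 2.33, 8.58% ± 0.812 and 12.8% ± 1.75.

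**Figure D2:**
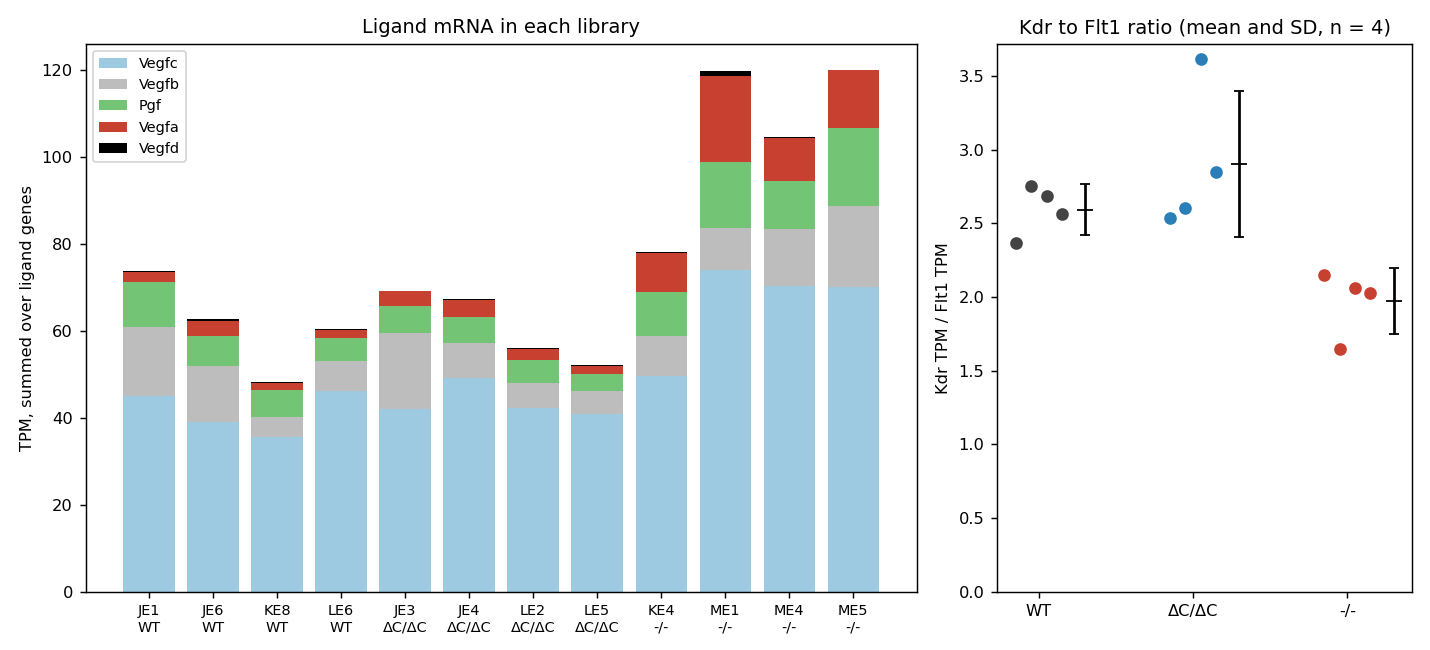
Left, TPM of the ligand genes stacked for each library, labelled by embryo and genotype. Right, ratio of Kdr TPM to Flt1 TPM in each library, with mean and SD of 4 libraries. Ligand sums reach 78.1 to 119.98 in Gpr124-/- against 48.3 to 73.9 in wild type, and the ratios of Gpr124-/- (1.65 to 2.15) lie below those of wild type (2.37 to 2.76).

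Among the receptors, Flt4 rose in Gpr124-/-, whereas Kdr and Flt1 did not pass the test. Kdr, the main signaling receptor, measured 704, 679, 826 and 867 TPM in wild type, 519, 754, 1051 and 950 in Gpr124ΔC/ΔC, and 718, 579, 810 and 723 in Gpr124-/-. These ranges overlapped, and the log2 fold change in Gpr124-/- of -0.16 had a 95% confidence interval from -0.47 to 0.14 (adjusted p = 0.494). Flt1, the high-affinity receptor with weak kinase activity, measured 298, 247, 307 and 338 TPM in wild type, 204, 290, 290 and 334 in Gpr124ΔC/ΔC, and 333, 351, 393 and 357 in Gpr124-/-. Only the lowest Gpr124-/- library (KE4) fell below the highest wild-type library (LE6), but at a log2 fold change of 0.23 (SE 0.10) the adjusted p was 0.129. Flt4, the receptor of VEGF-C and VEGF-D, measured 86.4, 92.0, 96.4 and 101 TPM in wild type, 70.2, 89.4, 118 and 121 in Gpr124ΔC/ΔC, and 111, 112, 145 and 164 in Gpr124-/-. All Gpr124-/- libraries exceeded all wild-type libraries, with a log2 fold change of 0.46 (SE 0.15, adjusted p = 0.0489). This call lay at the threshold and held in 6 of 22 alternative analyses. It was lost on leaving out any 1 of 10 libraries (all but JE3 and KE4), with adjusted p then above 0.05 and up to 0.129.

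Nrp1 encodes the co-receptor that binds VEGF-A and SEMA3A. Its TPM was 148, 142, 165 and 192 in wild type, 150, 227, 288 and 238 in Gpr124ΔC/ΔC, and 251, 269, 280 and 294 in Gpr124-/-. Gpr124-/- was above wild type in every library, and Gpr124ΔC/ΔC overlapped both. The log2 fold change of Gpr124-/- against wild type was 0.72 (SE 0.13, adjusted p = 0.00131), or 1.65-fold. Nrp2, the co-receptor shared by VEGF-C and SEMA3F, measured 30.9, 32.4, 41.4 and 35.8 TPM in wild type, 37.7, 47.4, 62.3 and 48.4 in Gpr124ΔC/ΔC, and 50.1, 33.2, 39.1 and 34.9 in Gpr124-/-. In Gpr124-/-, KE4 was the highest library and the other 3 lay within the wild-type range, with a log2 fold change of 0.12 (SE 0.13, adjusted p = 0.592).

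Proportions between receptors also differed in TPM. The ratio of Kdr to Flt1 was 2.59 ± 0.171 (SD, n = 4) in wild type, 2.90 ± 0.496 in Gpr124ΔC/ΔC and 1.97 ± 0.223 in Gpr124-/-. The ratio of Kdr to Flt4 was 8.17 ± 0.564, 8.14 ± 0.673 and 5.42 ± 0.868, respectively. The ratio of Nrp1 to Nrp2 was 4.63 ± 0.589, 4.58 ± 0.421 and 7.16 ± 1.53, and the Gpr124-/- library KE4, at 5.01, lay inside the wild-type range of 3.99 to 5.37. The Gpr124-/- libraries did not overlap wild type in either ratio of Kdr. These ratios are given as descriptions without a test.

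**Figure D3:**
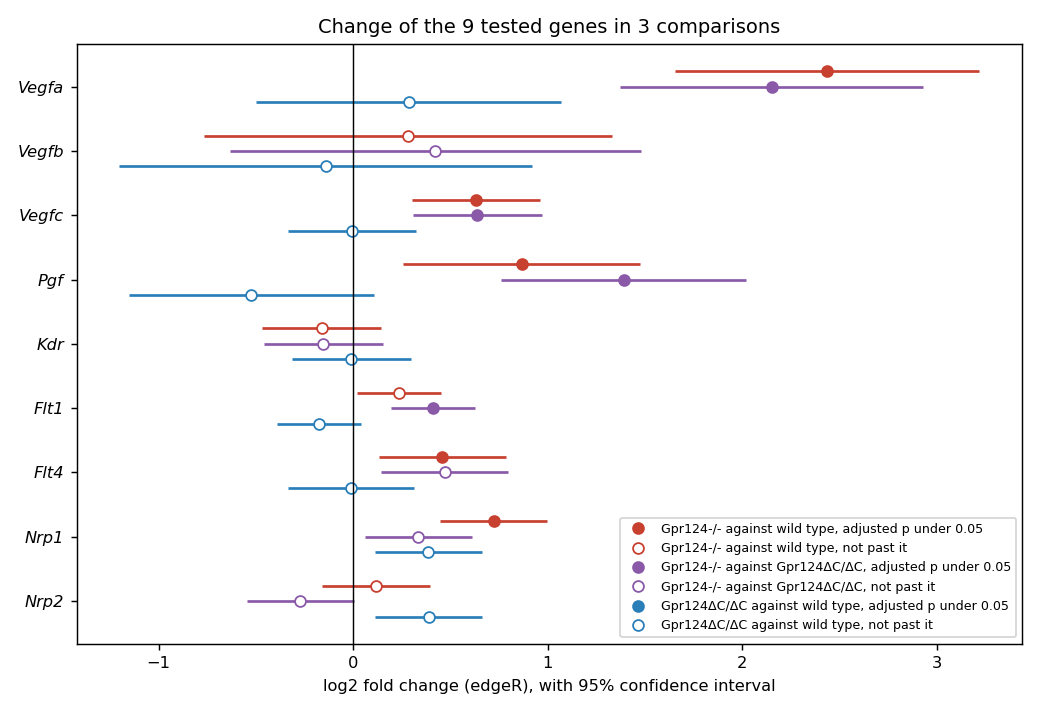
Log2 fold change (horizontal axis, edgeR) with 95% confidence interval for the 9 tested genes in Gpr124-/- against wild type, Gpr124-/- against Gpr124ΔC/ΔC and Gpr124ΔC/ΔC against wild type. Filled points mark an adjusted p under 0.05. Vegfa stands furthest from 0 in both comparisons with Gpr124-/-, and all points of Gpr124ΔC/ΔC against wild type are open.

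In Gpr124ΔC/ΔC, none of the 9 genes passed the test against wild type in edgeR, DESeq2 or limma, where 4.09% of all genes passed in either direction with edgeR (1.85% higher, 2.24% lower). TPM overlapped between Gpr124ΔC/ΔC and wild type for all 9, whereas it did not for 8.85% of all genes. In CPM (counts scaled to library size as adjusted by TMM factors), Nrp2 was higher in every Gpr124ΔC/ΔC library (173 to 232) than in wild type (129 to 168). It was 1 of the 9 genes without overlap on this scale, against 11.3% of all genes. Unadjusted p was under 0.05 for 2 of the 9, Nrp1 and Nrp2, and for 14.4% of all genes. The log2 fold change was 0.39 for Nrp1 (SE 0.13, adjusted p = 0.133) and likewise 0.39 for Nrp2 (SE 0.13, adjusted p = 0.133). Both were higher in mean TPM in Gpr124ΔC/ΔC than in wild type (226 ± 57.0 against 162 ± 22.5 for Nrp1, and 48.9 ± 10.1 against 35.1 ± 4.63 for Nrp2, SD, n = 4). Nrp1 passed when Gpr124ΔC/ΔC embryo JE3 was left out (log2 fold change 0.49, adjusted p = 0.0262). For Pgf the log2 fold change was -0.52 with a 95% confidence interval from -1.15 to 0.11 (adjusted p = 0.485). For Vegfa it was 0.29, with an interval from -0.50 to 1.07 that includes a doubling (adjusted p = 0.862), so the data set a wide limit on any change. The limits were narrower for Vegfc (-0.34 to 0.32), Kdr (-0.31 to 0.30), Flt4 (-0.34 to 0.31) and Flt1 (-0.39 to 0.04), and wide for Vegfb (-1.20 to 0.92).

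The mutants themselves differed in ligand mRNA. In Gpr124-/- against Gpr124ΔC/ΔC, 4 of 9 genes passed the test, all higher in Gpr124-/-, compared with 8.82% of all genes in either direction, 4.93% as higher and 3.89% as lower. Vegfa differed by 2.15 on the log2 scale (SE 0.36, adjusted p = 0.00304) and Pgf by 1.39 (SE 0.29, adjusted p = 0.0108), and each exceeded a log2 fold change of 1, as did 2.67% of all genes. Vegfc (0.64, SE 0.15, adjusted p = 0.0207) and Flt1 (0.41, SE 0.10, adjusted p = 0.0232) also passed. TPM did not overlap between the mutants for Vegfa, Vegfc and Pgf, as for 11.5% of all genes in either direction, and in CPM Flt1 did not overlap either (1494 to 1770 in Gpr124-/- against 1070 to 1446 in Gpr124ΔC/ΔC), where 13.9% of all genes did not. Flt4 (0.47, adjusted p = 0.0748) and Nrp1 (0.34, adjusted p = 0.127) did not pass, nor did Nrp2 (-0.27, adjusted p = 0.227), Kdr (-0.15, adjusted p = 0.550) or Vegfb (0.42, adjusted p = 0.645, and 1.08 without Gpr124ΔC/ΔC JE3, adjusted p = 0.146). The call for Vegfc was lost without Gpr124ΔC/ΔC LE2 or LE5 or any of Gpr124-/- ME1, ME4 or ME5 (adjusted p from 0.0548 to 0.0712), and that for Flt1 without LE2, ME1 or ME4 (0.0630 to 0.0682), in the fit of the mutants only (0.0515) and in the 3 limma analyses (0.160 or more). Flt4 passed with DESeq2 (adjusted p = 0.0392) and without KE4 (0.0307). Of the 9 genes, 5 passed with DESeq2 and 3 with limma on log2(TPM + 1). Comparisons with wild type and between mutants share libraries and are not independent.

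Embryo labels begin with J, K, L or M, whose meaning was not given in the sources used here. Gpr124-/- had 1 K and 3 M embryos, Gpr124ΔC/ΔC 2 J and 2 L, and wild type 2 J, 1 K and 1 L, so genotype and letter were largely confounded. Within wild type and within Gpr124ΔC/ΔC, J libraries were lower than the rest in TPM of Kdr, Flt1, Flt4, Nrp1 and Nrp2 and higher in Vegfa, Vegfb and Pgf. For Kdr these ranges were 679 to 704 against 826 to 867 TPM in wild type and 519 to 754 against 950 to 1051 TPM in Gpr124ΔC/ΔC. Within letter K, 1 Gpr124-/- library exceeded 1 wild-type library by a log2 CPM ratio of 2.33 for Vegfa, 0.67 for Pgf, 0.56 for Nrp1, 0.43 for Vegfc and 0.15 for Flt4. Only letter K holds both Gpr124-/- and wild-type embryos. With the letter as a term in the model, this comparison therefore rests on KE4 against KE8 and is no further check. Its log2 fold changes repeated the ratios within K, at 2.32 for Vegfa, 0.67 for Pgf, 0.56 for Nrp1, 0.43 for Vegfc and 0.15 for Flt4. Ratios of Gpr124ΔC/ΔC to wild type within letters J and L were 0.31 and 0.35 (log2) for Nrp1 and 0.36 and 0.52 for Nrp2, and Nrp2 passed in the fit with the letter (0.43, adjusted p = 0.0305). No letter held both mutants, so with the letter as a term their difference also rests on KE4 as the Gpr124-/- library (log2 fold change 2.05 for Vegfa).

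Genes that VEGF is known to induce in endothelium rose more often than not in Gpr124-/-. Of 16 tested genes of this list, 9 passed the test as higher and none as lower, where 10.5% of all genes were higher and 9.32% lower, with a median log2 fold change of 0.83 against -0.01 over all genes. Esm1, a secreted proteoglycan of tip cells, rose by 4.40 on the log2 scale (adjusted p = 3.44e-07), from 21.5 ± 3.55 to 462 ± 148 TPM (SD, n = 4). Plvap, the diaphragm protein of fenestrated endothelium, rose by 3.33 (adjusted p = 0.00377), and Spry4, a feedback inhibitor of receptor tyrosine kinases, by 2.77 (adjusted p = 4.33e-06). Angpt2 (1.74), Hlx (1.69), Nr4a3 (1.32, at 0.420 TPM or less on average), Adamts1 (0.84), Plaur (0.82) and Nr4a1 (0.66) made up the rest of the 9. The values of Dll4, the Notch ligand of tip cells (0.15, adjusted p = 0.648), and of Apln, a tip cell peptide (0.60, adjusted p = 0.173), did not pass. In Gpr124ΔC/ΔC, 2 of the 16 passed as higher (1.85% of all genes did), Esm1 (1.92, adjusted p = 0.000601) and Spry4 (1.23, adjusted p = 0.00764), with a median of 0.10. Between the mutants, 6 of the 16 were higher in Gpr124-/- and none lower (4.93% and 3.89% of all genes), among them Esm1 (2.48) and Spry4 (1.54).

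Genes of the response to low oxygen, which induces Vegfa in many tissues, were read from the same fit. The list holds induced genes and also regulators of the response, such as Hif1a, Epas1, Arnt and Vhl. Of 16, 8 were higher in Gpr124-/- and none lower (10.5% and 9.32% of all genes), with a median log2 fold change of 0.51. Egln3, an oxygen-sensing prolyl hydroxylase, rose by 2.58, the neuronal-type glucose transporter gene Slc2a3 by 2.17 and Ndrg1 by 1.64. Car9 (1.42), Bnip3 (1.01), Pdk1 (0.82), Ldha (0.71) and Pgk1 (0.70) also rose. Adm, a further hypoxia-induced peptide gene, did not pass (-0.36, adjusted p = 0.203). In Gpr124ΔC/ΔC, Egln3 (1.09) and Ndrg1 (0.67) rose and Adm fell by 0.92, with a median of 0.01 over the list. Between the mutants, 7 of the 16 were higher in Gpr124-/- and none lower, against 4.93% and 3.89% of all genes. The summed TPM of the list was 1707 to 2178 in wild type, 1556 to 2053 in Gpr124ΔC/ΔC and 2486 to 3082 in Gpr124-/-. The part of oxygen supply in the Vegfa values was not tested.

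**Figure D4:**
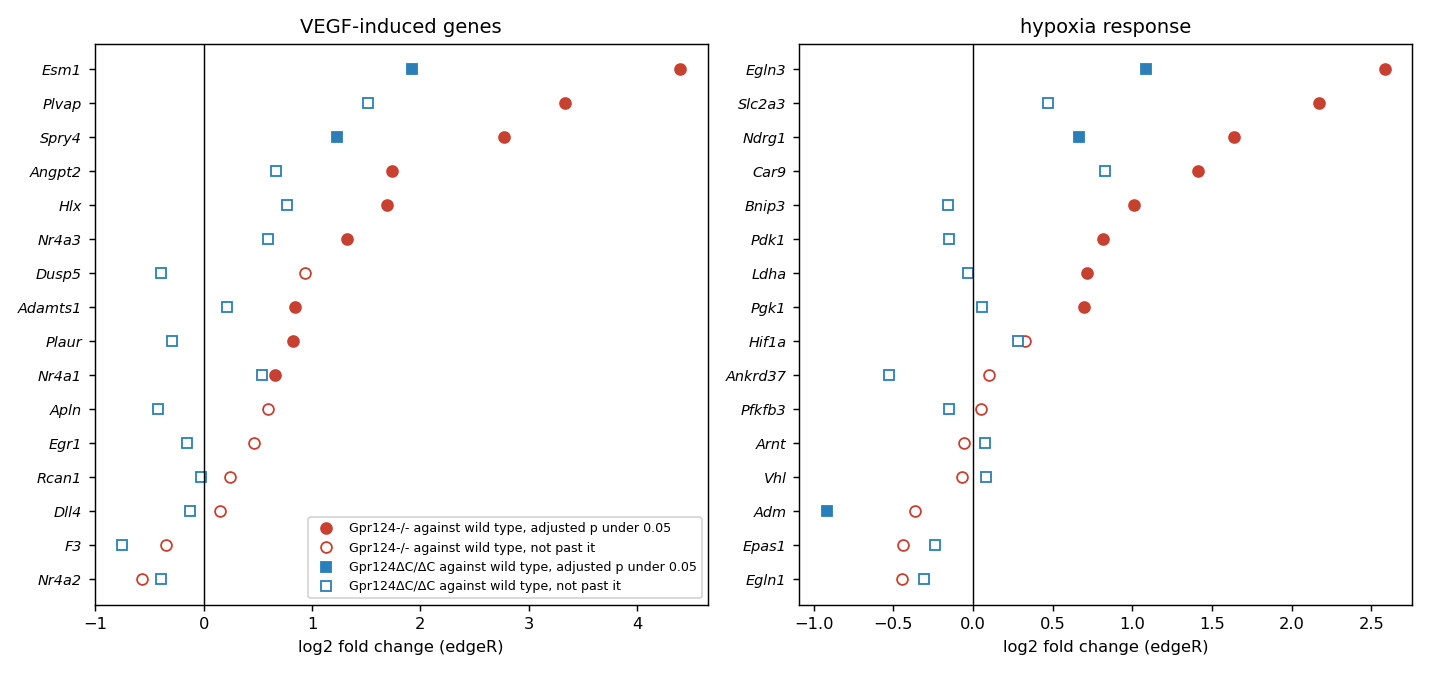
Log2 fold change (horizontal axes, edgeR) of the 16 tested VEGF-induced genes (left) and 16 hypoxia response genes (right), ordered by their value in Gpr124-/- against wild type (circles); squares are Gpr124ΔC/ΔC against wild type. Filled symbols mark an adjusted p under 0.05, and among circles these are 9 and 8 genes, all to the right of 0.

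Partners of the receptors at the membrane changed in both directions. Of 13 genes, 5 were higher and 1 lower in Gpr124-/- (10.5% and 9.32% of all genes). Dab2, an endocytic adaptor for VEGF receptors, fell by 1.71 on the log2 scale, from 62.1 ± 9.12 to 19.7 ± 7.16 TPM. Ptprj, a phosphatase that acts on KDR, rose by 1.61 from a low level (1.31 to 4.10 TPM), the tetraspanin gene Cd63 by 1.55 and Hspg2, the perlecan core protein, by 1.39. Cdh5, which holds KDR at junctions, rose by 0.74 and Ephb4 by 0.53. In Gpr124ΔC/ΔC, Hspg2 rose (0.66, adjusted p = 0.0352) and Dab2 fell by 0.92 (adjusted p = 0.0182).

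The kinase cascade below KDR held 28 tested genes, of which 3 were higher and 5 lower in Gpr124-/-, with a median of 0.16. Of all genes, 10.5% were higher, close to the share within the cascade, and 9.32% were lower. Prkca, a protein kinase C gene, rose by 1.63, and the related Prkcb fell by 2.50. Nfatc1 and the phosphatidylinositol kinase subunit gene Pik3r1 both rose by 0.71. Lower were Hspb1, a small heat shock protein gene (-1.49), the kinase gene Src (-1.44), Nfatc2 (-1.19) and Nos3, which encodes endothelial nitric oxide synthase (-0.68). In Gpr124ΔC/ΔC 2 of the 28 genes passed, where 4.09% of all genes did, Nfatc1 as higher (0.59) and Hspb1 as lower (-1.01).

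Class 3 semaphorins compete with VEGF for neuropilins and signal through plexins. Of 12 such genes, 4 rose and 1 fell in Gpr124-/- (10.5% and 9.32% of all genes). Sema3f, the main NRP2 ligand, rose by 3.45 (adjusted p = 0.000975) from 3.58 ± 2.09 to 40.6 ± 20.1 TPM. Plxna4 rose by 1.67, Plxnd1, the endothelial plexin, by 1.60 and Plxna2 by 0.76. Sema3e, a ligand of PLXND1, fell by 3.23 at a very low level (0.330 to 0.0326 TPM). In Gpr124ΔC/ΔC the 12 log2 fold changes ran from -0.84 to 1.22, and none passed with edgeR, where 4.09% of all genes did. Among 16 endothelial transcription factors, several of which drive Kdr and Flt4, Ets2 (0.80) and Elk3 (0.44) were higher in Gpr124-/- and Lmo2 (-0.84), Sox7 (-0.72) and Erg (-0.41) lower, with a median of -0.10, counts that also stand beside 10.5% and 9.32% of all genes. In Gpr124ΔC/ΔC, Ets2 (0.45) and Elk3 (0.33) were higher and Hey1 (-0.77) and Sox7 (-0.47) lower.

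Between embryos of the same genotype, the 4 tested ligand genes varied together (Vegfd was left out). After genotype means were removed, Pearson's r of log2 CPM over the 12 libraries ran from 0.61 to 0.78 over the 6 pairs of ligand genes. Over the 10 pairs of receptor and neuropilin genes it ran from -0.25 to 0.78, with 8 above 0, and over the 20 pairs of a ligand gene with a receptor or neuropilin gene from -0.86 to 0.13, with 3 above 0. The extremes of the 36 pairs were Kdr with Nrp1 (0.78) and Vegfc with Nrp2 (-0.86). Several of these libraries share a label letter, and no test was made. Over all 12 libraries with genotype differences kept, the genes most like Vegfa were Gmfg (r = 0.97), Dusp3 (0.96) and Dock8 (0.96), with r from 0.76 to 0.78 once genotype means were removed. Vegfc was most like Gas2l1, St8sia6 and P2ry1 (each 0.98), and these kept r from 0.93 to 0.95 within genotypes. The nearest genes were Gadd45g (0.95), Cycs (0.93) and Gng11 (0.92) for Pgf, Chpf2, Gcn1l1 and Myo1c (each 0.95) for Flt4, and Arhgef3, Rftn2 and Slc43a1 (each 0.97) for Nrp1.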

How the data were processed

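RNA-seq libraries of 12 embryos were analyzed, 4 per genotype. The study isolated RNA with a PicoPure kit and prepared ultra-low input SMART-Seq libraries with poly(A) selection, and Genewiz performed paired-end Illumina sequencing and the bioinformatic steps. The submitters' processing notes name bcl2fastq 2.17 and mm10; the aligner, the counting program and its use of strand are not given in the sources used here. The authors deposited raw read counts for 49315 Ensembl genes per library and a table of TPM values (length-normalized, scaled per library), which matched TPM recomputed from the counts to within 0.0495%. GENCODE vM21 held 49056 of the identifiers and lacked 259.

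Counts were fitted in R 4.3.3 with edgeR 4.0.16 (filterByExpr at a count minimum of 10, TMM with factors of 0.946 to 1.04, quasi-likelihood test with genotype as the term, all 12 libraries), and 16637 genes were tested in 3 comparisons. A gene passed at a Benjamini-Hochberg adjusted p under 0.05, and the study's second threshold was an absolute log2 fold change above 1. Named genes were all 10 members, and of each list the genes past these thresholds or the 3 largest rises and falls; other list genes named were chosen after their values were seen. For likeness, the 3 genes of at least 8 CPM with the highest Pearson correlation were taken. Members and lists were chosen with earlier results of these data known. Embryos are separate labelled samples, and no pairing is labelled.

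Alternatives were 10 other settings (DESeq2 1.42.0 and its size factors, upper-quartile factors, filters, 2 genotypes only, the label letter as a term, and limma 3.58.1 on log2 TPM with a pseudocount of 1 or 0.1) and leaving out each of the 12 libraries. On simulated data for Gpr124-/- against wild type (16513 genes), edgeR recovered 100 of 100 genes changed 4-fold and 72 of 100 changed 2-fold, with 7 unchanged genes past the test. With the label letter as a term it recovered 43 and 5. The simulation gave all genes the same dispersion, held no letter effect and changed only genes with many reads. Recovery for ligand genes with few reads or a wide spread was therefore not measured. Promoter windows came from RefSeq (GRCm38.p6), where all 10 genes were found. Protein sequences were not used here. Tables and plots used Python 3.11.15, pandas 2.3.3, numpy 2.4.6 and matplotlib 3.10.9.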

Additional observations from a re-analysis of the deposited data

Results flagged for a closer look

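Vegfc in Gpr124-/- was flagged because embryo KE4, at 49.7 TPM, lay far below the other 3 libraries of the genotype (70.2 to 73.9 TPM), a gap of 0.844 of the whole range, above Dixon's 95% critical value for 4 samples. KE4 is the only Gpr124-/- embryo whose label begins with K. It was the only flag among 30 groups of 4 libraries examined, where chance flags about 1 in 20.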

How the results depend on the processing

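In Gpr124-/- against wild type, 5 of 9 genes passed, against 3 with no filter on low counts, 3 in the fit of the 2 compared genotypes only, 1 (Vegfa) when the model held the label letter, and 3 to 5 on leaving out 1 library (3 without JE6, KE8, LE6, JE4, LE2, ME1 or ME5). In Gpr124ΔC/ΔC against wild type, the count of 0 became 1 when the model held the label letter (Nrp2) and 0 to 1 when 1 library was left out (Nrp1 without JE3). Between the mutants, the count of 4 became 0 with the label letter and 2 to 5 when 1 library was left out (2 without LE2, ME1 or ME4). Genes of the pathway lists past the test in Gpr124-/- against wild type numbered 33, and 15 with the label letter. Over all genes, the label letter lowered the count from 3295 to 1025 in Gpr124-/- against wild type and from 1468 to 212 between the mutants. Between the mutants it was 925, 878 and 691 with limma on log2(TPM + 1), log2(TPM + 0.1) and unfiltered values, 918 without LE5 and 883 without ME1. For Gpr124ΔC/ΔC against wild type the count of 680 became 1072 with DESeq2, 433 with limma on log2(TPM + 0.1) and 345 with unfiltered limma. In the fits with the label letter, both comparisons of Gpr124-/- rest on KE4 as its only library that shares a letter with another genotype. The cause of these shifts in count was not tested.

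Direction changed in 32 of the alternative values, all near 0 in Gpr124ΔC/ΔC against wild type (adjusted p of 0.723 or more). Leaving out 1 library gave log2 fold changes from -0.795 to 0.148 for Vegfb, -0.0862 to 0.0397 for Vegfc, -0.122 to 0.111 for Kdr and -0.105 to 0.0721 for Flt4. Vegfc was 0.0255 with upper-quartile factors, 0.0091 at a mean of at least 50 counts, 0.0056 with the 2 genotypes only, and 0.0713, 0.0729 and 0.0713 with limma on log2(TPM + 1), log2(TPM + 0.1) and unfiltered values. Kdr was 0.0211, 0.0018 and 0.0014 in the same first 3 settings and 0.047 in each limma analysis. Flt4 was 0.0195 with upper-quartile factors and 0.053, 0.0531 and 0.053 with limma. All other values kept their direction, 44 losing and 4 gaining significance. Depth limits Vegfd. No paired analysis was possible because embryo numbers are not labelled as pairs across genotypes; the fit with the label letter, a term of unknown meaning that spans genotypes for J, K and L, is given above.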
